A study of Homo sapiens with 9 samples.

Results

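The 10 genes described here encode the heterochromatin protein 1 (HP1) readers, 6 histone H3 lysine 9 (H3K9) methyltransferases and TRIM28, the corepressor that recruits SETDB1: CBX1, CBX3, CBX5, SUV39H1, SUV39H2, SETDB1, SETDB2, EHMT1, EHMT2 and TRIM28 itself. The rule that chose them is a list of names and uses no measured value, though the list was drawn up with earlier results of these data known. They are 10 of the 62666 genes in the deposited tables. All 10 were among the 17910 genes that passed a filter on low counts and were tested.

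H3K9 methylation marks chromatin that is kept silent, and HP1 proteins bind the mark through their chromodomain and draw in further methyltransferase, so that a silenced domain can spread. SUV39H1 and SUV39H2 act mainly on repeats around centromeres, EHMT1 and EHMT2 form a heterodimer that dimethylates H3K9 in gene-rich chromatin, and SETDB1 is brought to retroelements by TRIM28 and KRAB zinc finger proteins. In mammary epithelium, as in other dividing tissue, the pathway has to restore the mark after each round of DNA replication.

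Polyadenylated RNA was sequenced in 3 libraries of each of 3 human mammary epithelial cell lines, to follow expression through breast cancer progression, the study's stated purpose. MCF10A is an immortal, non-tumorigenic line, MCF10AT1 is its premalignant derivative carrying an activated HRAS gene, and MCF10Ca1a is a malignant line derived from MCF10AT1 xenografts. All were grown in DMEM/F12 with insulin, glutamine, epidermal growth factor, hydrocortisone and cholera toxin, with 5% horse serum for MCF10A and MCF10Ca1a and 2.5% for MCF10AT1, so the MCF10AT1 line and its serum cannot be told apart. Each stage is 1 cell line, and the labels do not say whether the 3 libraries of a line came from separate cultures, so p-values measure the spread between libraries, which may be technical.

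The libraries held 62.9 to 69.5 M (mega) estimated counts in MCF10A and MCF10AT1 and 32.9 to 35.2 M in MCF10Ca1a. Of 8 epithelial markers, all 8 had a mean above 1 TPM (a level corrected for transcript length and library size) in each line, with summed levels of 1934 to 2702, 2904 to 3265 and 2634 to 2733 TPM in MCF10A, MCF10AT1 and MCF10Ca1a. Of the immune markers, CD3E and AIF1 had 0 counts in all 9 libraries and PTPRC was at most 0.0377 TPM. The 7 fibroblast markers summed to 27.7 to 31.5 TPM in MCF10AT1 against 1.94 to 7.23 in the other lines, most of it DCN (27.9 TPM on average in MCF10AT1), while COL1A1 was lower there (0.961 TPM) than in MCF10A (3.06). The 3 endothelial markers summed to 15.6 to 20.8 TPM in MCF10Ca1a against 0.554 to 1.22, nearly all of it PECAM1 (18.7 TPM on average in MCF10Ca1a), with CDH5 and VWF near 0 (COL1A2 and LUM at 0 in MCF10Ca1a, COL1A2 in MCF10AT1, COL3A1 in MCF10A, and CDH5 in MCF10A and MCF10Ca1a). Their part in the results was not tested. MCF10A replicate 1 stood apart from the other MCF10A libraries (chi-square per degree of freedom 31.0 and 72.4 against 11.3 between the other pair), and without it the counts of called genes among the 10 were the same: 6, 8 and 9 in the 3 comparisons. MCF10AT1 replicate 3 also stood apart from its group (14.2 and 16.5 against 3.52), and without it the counts were 7, 8 and 9.

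The start regions of 5 of the genes are shown: CBX3, SUV39H1 and SUV39H2, which fell at least 2-fold in MCF10Ca1a, EHMT1, the only one of the 10 that rose there against MCF10A, and CBX5, which shares its start region with HNRNPA1. Each is RefSeq's promoter on GRCh38.p14, read 5′ to 3′ on the gene's strand from 250 bases before the transcription start to 30 after it, with matched words in capitals. RefSeq windows were found for 9 of the 10 genes, 13 windows in all. Where a gene has several, the window shown is the one nearest the start of its most abundant transcript in these libraries, 139 bases away for SUV39H1 and 20 bases for CBX5. For CBX3, SUV39H2 and EHMT1, with 1 window each, that distance was 250, 46 and 42 bases.
CBX3, chr7:26201193-26201472, + strand: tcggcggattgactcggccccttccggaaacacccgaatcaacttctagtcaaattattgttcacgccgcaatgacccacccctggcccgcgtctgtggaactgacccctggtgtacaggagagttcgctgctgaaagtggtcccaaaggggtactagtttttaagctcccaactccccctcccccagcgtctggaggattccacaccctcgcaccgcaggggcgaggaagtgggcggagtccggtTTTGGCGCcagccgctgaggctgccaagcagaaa
CBX5, chr12:54280093-54280372, - strand: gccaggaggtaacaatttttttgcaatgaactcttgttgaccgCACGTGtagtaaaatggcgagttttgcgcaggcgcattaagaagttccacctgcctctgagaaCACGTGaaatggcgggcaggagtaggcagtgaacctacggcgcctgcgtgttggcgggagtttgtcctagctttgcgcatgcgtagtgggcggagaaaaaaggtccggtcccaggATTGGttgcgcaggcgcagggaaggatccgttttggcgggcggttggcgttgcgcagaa
SUV39H1, chrX:48696484-48696763, + strand: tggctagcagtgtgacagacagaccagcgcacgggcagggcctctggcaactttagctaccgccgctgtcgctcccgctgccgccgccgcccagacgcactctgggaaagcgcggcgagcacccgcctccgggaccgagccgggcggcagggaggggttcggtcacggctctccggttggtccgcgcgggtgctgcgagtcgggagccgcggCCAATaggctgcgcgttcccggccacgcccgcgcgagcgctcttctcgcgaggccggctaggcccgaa
SUV39H2, chr10:14878616-14878895, + strand: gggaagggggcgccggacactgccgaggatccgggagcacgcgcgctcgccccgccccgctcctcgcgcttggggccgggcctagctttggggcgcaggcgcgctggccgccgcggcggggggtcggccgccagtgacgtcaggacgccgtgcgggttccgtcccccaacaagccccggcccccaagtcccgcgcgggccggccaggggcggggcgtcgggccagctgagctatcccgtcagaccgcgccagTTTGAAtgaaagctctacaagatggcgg
EHMT1, chr9:137618755-137619034, + strand: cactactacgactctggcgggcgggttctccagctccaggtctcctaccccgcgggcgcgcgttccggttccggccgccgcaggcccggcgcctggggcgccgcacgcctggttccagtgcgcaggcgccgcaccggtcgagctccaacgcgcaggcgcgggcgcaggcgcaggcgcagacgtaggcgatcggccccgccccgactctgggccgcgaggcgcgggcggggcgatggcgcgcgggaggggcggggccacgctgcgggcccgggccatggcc
The capitals in CBX3 are an E2F word, TTTGGCGC, which spans the RefSeq start at positions -4 to 4. That start lies 250 bases from the start of the most abundant CBX3 transcript in these libraries. SUV39H2 has the word TTTGAA, known from cell cycle genes as the CHR element, at positions 3 to 8. CBX5 holds the E-box CACGTG at -207 to -202 and at -144 to -139 and a CCAAT box on the other strand at -29 to -25, and SUV39H1 has a CCAAT box at -38 to -34. EHMT1 matched none of the words.

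The search covered both strands of the whole RefSeq windows, to 50 bases past the start, for E2F (TTTCCCGC, TTTGGCGC, TTTCGCGC or TTTGCCGC) and for the CHR element, the CCAAT box and the E-box spelled out above. The NRF1 motif, in its palindromic form, and the YY1 word GATGGCGGC were searched in the same way. None of the words overlapped another in the windows of the 10 genes. An E2F word was in 1 of the 13 windows and in 3.3% of all 34943 RefSeq windows of the same length. CHR was in 1 of 13 against 15.2%, CCAAT in 5 against 34.6%, the E-box in 4 against 7.23%, and YY1 in 2 (SUV39H2 at 23 to 31 and EHMT2 at 21 to 29) against 1.4%. NRF1 was in none of the 13 and in 1.23% of all windows. Several of these windows overlap (CBX5 and SETDB1 each have overlapping alternatives), and a match describes letters only, with no evidence here of binding.

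Across the 10 genes, expression differed most in MCF10Ca1a, where all 3 HP1 genes, both SUV39H genes and SETDB2 were lower than in either other line, and EHMT1 was higher. A gene was called where edgeR (quasi-likelihood test, Benjamini-Hochberg) gave an adjusted p under 0.05 among all genes tested. In MCF10AT1 against MCF10A, 6 of the 10 were called, 2 higher and 4 lower, where 61.6% of all genes tested were called, 29.8% higher and 31.8% lower. For MCF10Ca1a against MCF10A, 8 of the 10 were called, 1 higher and 7 lower, with 80.9% of all genes called, 39% higher and 41.9% lower. For MCF10Ca1a against MCF10AT1, 9 were called, 2 higher and 7 lower, where 78.4% of all genes were called, 38% higher and 40.3% lower. Called falls of at least 2-fold numbered 3 of 10 in each MCF10Ca1a comparison, with a background of 21.7% against MCF10A and 19.5% against MCF10AT1. None of the 10 was called at 2-fold in MCF10AT1 against MCF10A, where 8.64% of all genes were lower and 9.36% higher by that much. Medians of the log2 fold change over the 10 genes were -0.05, -0.74 and -0.61 in the 3 comparisons, beside -0.00, -0.05 and -0.04 over all genes tested. Medians of its absolute value were 0.29, 0.75 and 0.61, each below the 0.38, 0.84 and 0.76 over all genes tested. The last 2 comparisons share the MCF10Ca1a libraries and the first 2 the MCF10A libraries, so they are not independent of each other. On log2(TPM + 1) the split of calls over all genes moved, to 3447 higher and 6086 lower in MCF10AT1 against MCF10A (5335 and 5690 on counts). It moved to 7550 and 6172 in MCF10Ca1a against MCF10A (6979 and 7512 on counts) and to 8203 and 5104 in MCF10Ca1a against MCF10AT1 (6808 and 7226 on counts). Directions between the lines therefore depend in part on the scale.

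**Figure D1:**
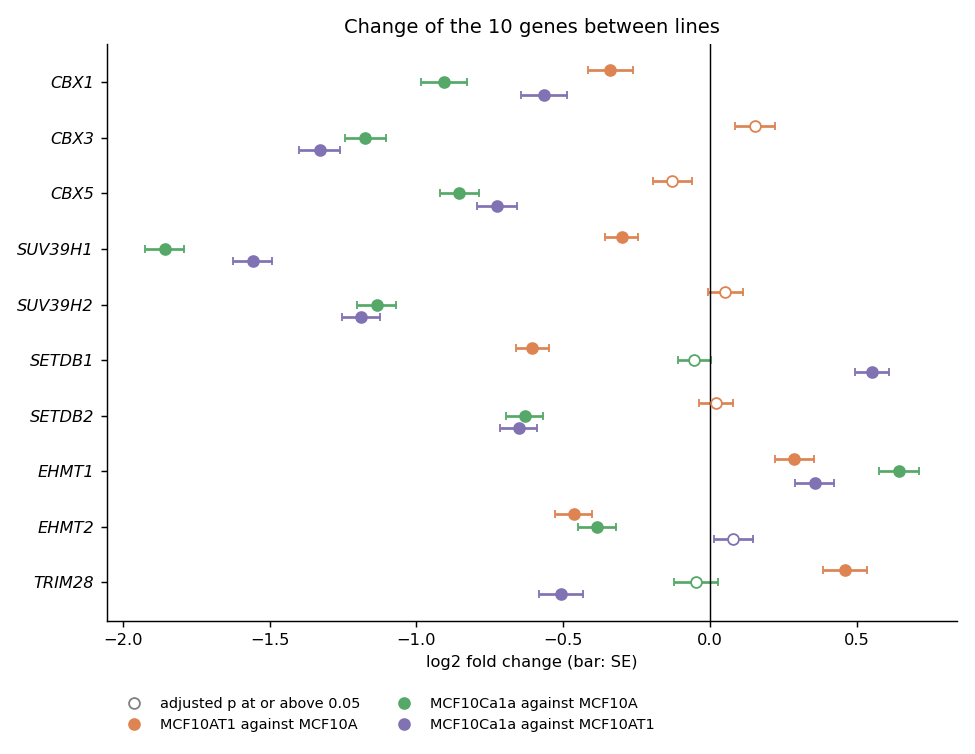
Log2 fold change of each gene (horizontal axis; bars are the SE of the edgeR fit over 9 libraries) in the 3 comparisons, with open points where the adjusted p was 0.05 or more. The HP1 genes, both SUV39H genes and SETDB2 lie left of 0 in both MCF10Ca1a comparisons, EHMT1 lies right of 0 in all 3, and SETDB1 and TRIM28 were called only in the comparisons that include MCF10AT1.

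The HP1 genes were the most abundant group, and their summed level was 603 ± 9.27 TPM in MCF10A, 579 ± 2.67 in MCF10AT1 and 301 ± 3.50 in MCF10Ca1a (SD, n = 3), a description with no test of its own. CBX3 encodes HP1 gamma, which is found in gene-rich chromatin as well as at silent domains (ENSG00000122565.19, chr7:26201162-26213356, + strand). It was the most abundant of the 10 in every line, at 475, 509.8 and 526 TPM in the MCF10A libraries, 502, 507 and 503 in MCF10AT1, against 238, 243 and 241 in MCF10Ca1a. MCF10A and MCF10AT1 overlapped, and every MCF10Ca1a library was below both. CBX3 fell 2.26-fold in MCF10Ca1a against MCF10A (log2 fold change -1.17, SE 0.0696, adjusted p = 1.50e-09) and 2.51-fold against MCF10AT1 (-1.33, SE 0.0698, adjusted p = 5.43e-10). Between MCF10AT1 and MCF10A its log2 difference was 0.15 (adjusted p = 0.0655), which passed the threshold without MCF10A replicate 3 (0.22, adjusted p = 0.00485) and in DESeq2 (0.15, adjusted p = 0.0478). Of the 20 alternative settings tried, 3 called it, and the values ran from 0.0027 to 0.22. The 9 processed copies of CBX3 elsewhere in the genome drew 0.401% as many counts as the gene over the 9 libraries.

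CBX1, which encodes HP1 beta (ENSG00000108468.15, chr17:48070052-48101521, - strand), stood at 77.3, 60.1 and 52.5 TPM in MCF10A, 45.4, 44.7 and 43.2 in MCF10AT1, against 37.4, 36.6 and 36.6 in MCF10Ca1a. The 3 lines did not overlap, and MCF10A replicate 1 was the highest of the 9 libraries. On counts CBX1 was the HP1 gene called lower at both steps: by 0.34 on the log2 scale in MCF10AT1 (SE 0.0763, adjusted p = 0.00158) and by a further 0.57 from MCF10AT1 to MCF10Ca1a (SE 0.0785, adjusted p = 1.47e-05), with -0.90 between MCF10Ca1a and MCF10A (adjusted p = 9.84e-08). Without MCF10A replicate 1 the first of these values was -0.22 (adjusted p = 4.48e-04). On the log2(TPM + 1) scale the step from MCF10AT1 to MCF10Ca1a was -0.26 and was not called (limma, adjusted p = 0.0548). On that scale CBX5 was the HP1 gene called lower at both steps.

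CBX5 encodes HP1 alpha, the form most tied to pericentromeric heterochromatin (ENSG00000094916.16, chr12:54230940-54280133, - strand). Its levels were 40.6, 35.5 and 32.9 TPM in MCF10A, 30.6, 29.5 and 30.3 in MCF10AT1, against 21.8, 25.0 and 23.5 in MCF10Ca1a. All 3 lines were apart on this scale, while on the count scale the MCF10AT1 libraries reached into the MCF10A range (166, 161 and 187 against 179 to 199 CPM, counts scaled to library size). CBX5 fell 1.81-fold in MCF10Ca1a against MCF10A (-0.85, SE 0.0671, adjusted p = 3.33e-08) and 1.65-fold against MCF10AT1 (-0.73, SE 0.0671, adjusted p = 2.16e-07). The latter value was -0.35 on log2(TPM + 1) (limma, adjusted p = 0.00238). Its difference between MCF10AT1 and MCF10A was -0.13 on counts (adjusted p = 0.108) and -0.26 on log2(TPM + 1), where it was called (limma, adjusted p = 0.0204). Without MCF10AT1 replicate 3 the count difference was -0.19 and called (adjusted p = 0.0205).

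**Figure D2:**
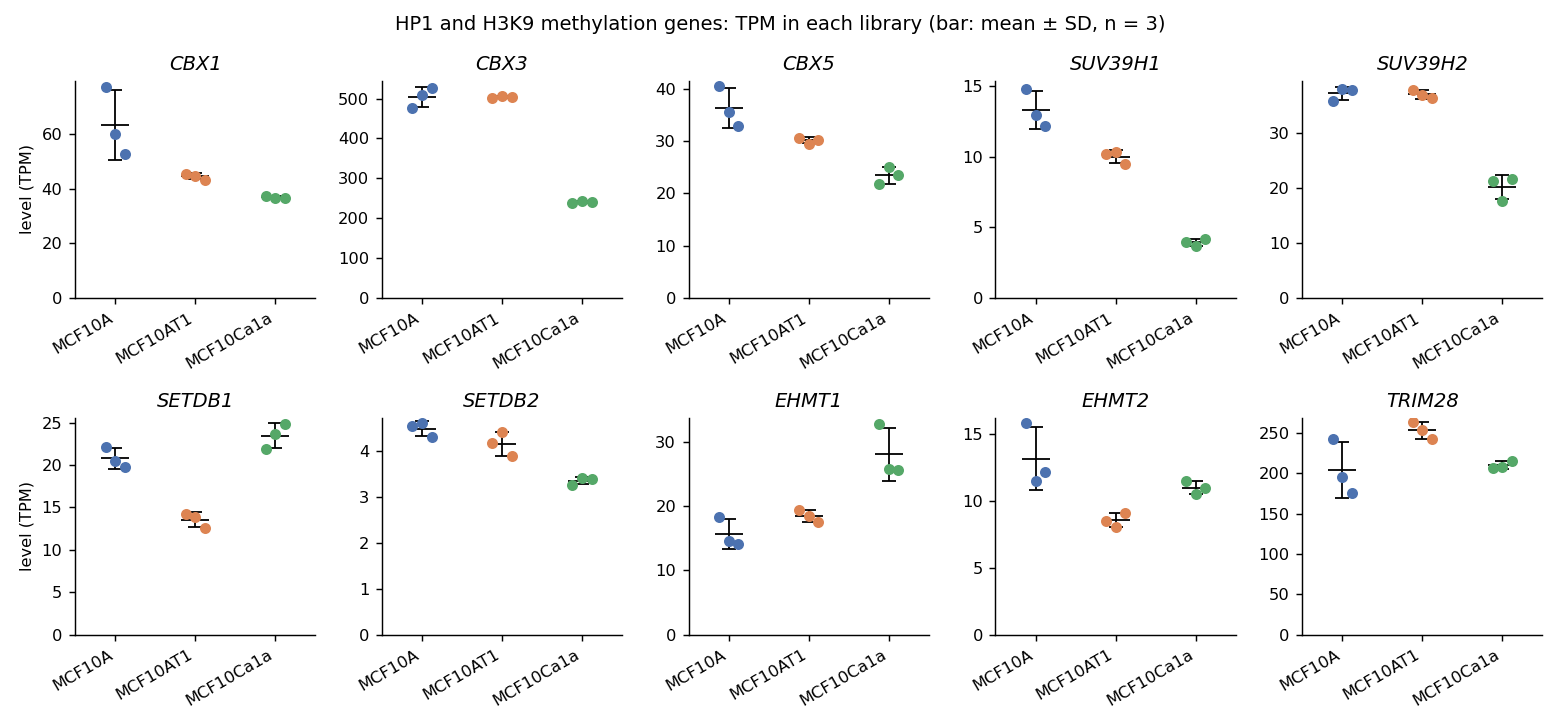
TPM of the 10 genes in each of the 9 libraries (vertical axis from 0; points are libraries, bars the mean ± SD of 3). CBX3, SUV39H1 and SUV39H2 are lowest in all 3 MCF10Ca1a libraries, SETDB1 is lowest in all 3 MCF10AT1 libraries, and EHMT1 is highest in all 3 MCF10Ca1a libraries.

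SUV39H1 showed the largest fall of the 10. It encodes an enzyme that trimethylates H3K9 at pericentromeric repeats (ENSG00000101945.17, chrX:48695554-48709012, + strand). Its levels were 14.8, 13.0 and 12.2 TPM in MCF10A, 10.2, 10.3 and 9.51 in MCF10AT1, against 3.95, 3.71 and 4.19 in MCF10Ca1a, so the lines formed 3 separate steps. Against MCF10A it was 3.62-fold lower in MCF10Ca1a (-1.86, SE 0.0658, adjusted p = 6.77e-12), and against MCF10AT1 2.94-fold lower (-1.56, SE 0.0662, adjusted p = 6.09e-11). The fall from MCF10A to MCF10AT1 was 1.23-fold (-0.30, SE 0.0570, adjusted p = 4.29e-04). All 3 calls held under each of the 20 alternative settings tried.

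SUV39H2, the paralog with the same activity (ENSG00000152455.16, chr10:14878820-14904315, + strand), was level in the first 2 lines and lower in the third. It stood at 36.0, 38.1 and 37.9 TPM in MCF10A, 37.9, 37.1 and 36.4 in MCF10AT1, against 21.3, 17.6 and 21.7 in MCF10Ca1a. The MCF10A and MCF10AT1 ranges overlapped and their log2 difference was 0.05 (adjusted p = 0.471, -0.01 on the TPM scale). MCF10Ca1a was 2.20-fold lower than MCF10A (-1.14, SE 0.0651, adjusted p = 1.05e-09) and 2.28-fold lower than MCF10AT1 (-1.19, SE 0.0651, adjusted p = 8.43e-10). Because SUV39H1 fell further, its share of the pair's summed TPM went from 26.3% ± 2.54 in MCF10A to 21.2% ± 0.544 in MCF10AT1 and 16.4% ± 0.914 in MCF10Ca1a (SD, n = 3), with no overlap between lines. The pair together summed to 50.7 ± 0.533, 47.1 ± 1.12 and 24.2 ± 2.49 TPM.

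SETDB1 was low in MCF10AT1 alone. This methyltransferase works with TRIM28 to silence retroelements (ENSG00000143379.13, chr1:150926263-150964744, + strand). It measured 22.2, 20.5 and 19.8 TPM in MCF10A, 14.2, 13.9 and 12.5 in MCF10AT1, against 21.9, 23.7 and 24.8 in MCF10Ca1a, with the MCF10A and MCF10Ca1a ranges overlapping and MCF10AT1 below both. The gene was 1.52-fold lower in MCF10AT1 than in MCF10A (-0.60, SE 0.0556, adjusted p = 5.13e-07) and 1.47-fold higher in MCF10Ca1a than in MCF10AT1 (0.55, SE 0.0568, adjusted p = 6.70e-07). MCF10Ca1a and MCF10A differed by -0.05 (adjusted p = 0.401), a value whose sign turned on other scales (0.17 on log2(TPM + 1), adjusted p = 0.0639). The line with low SETDB1 is also the line grown in 2.5% serum.

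SETDB2, a related methyltransferase with a divided SET domain (ENSG00000136169.17, chr13:49444374-49495003, + strand), was the least abundant of the 10. Its TPM was 4.56, 4.63 and 4.31 in MCF10A, 4.19, 4.42 and 3.89 in MCF10AT1, against 3.28, 3.42 and 3.39 in MCF10Ca1a, the first 2 lines overlapping and the third below both. It fell 1.55-fold in MCF10Ca1a against MCF10A (-0.63, SE 0.0636, adjusted p = 4.94e-07) and 1.57-fold against MCF10AT1 (-0.65, SE 0.0636, adjusted p = 3.83e-07). On log2(TPM + 1) these values were -0.33 and -0.24, both called (limma, adjusted p = 0.00228 and 0.0142). MCF10AT1 and MCF10A differed by 0.02 (adjusted p = 0.774), or by -0.09 on log2(TPM + 1). SETDB1 held 82.2% ± 0.704 of the pair's TPM in MCF10A, 76.5% ± 0.674 in MCF10AT1 and 87.5% ± 0.506 in MCF10Ca1a, again with no overlap. The low point in MCF10AT1 came with low SETDB1 and the high point in MCF10Ca1a with low SETDB2.

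EHMT1, also called GLP (ENSG00000181090.21, chr9:137618963-137870016, + strand), was the only gene of the 10 called higher at both steps. It stood at 18.3, 14.6 and 14.0 TPM in MCF10A, 19.3, 18.4 and 17.5 in MCF10AT1, against 32.7, 25.7 and 25.5 in MCF10Ca1a. MCF10A replicate 1 lay inside the MCF10AT1 range, and every MCF10Ca1a library was above both. EHMT1 rose 1.22-fold in MCF10AT1 (0.29, SE 0.0663, adjusted p = 0.00194), 1.28-fold from there to MCF10Ca1a (0.36, SE 0.0667, adjusted p = 2.24e-04) and 1.56-fold between MCF10A and MCF10Ca1a (0.64, SE 0.0671, adjusted p = 6.89e-07). The first step was not called on log2(TPM + 1), where it was 0.23 (limma, adjusted p = 0.120), and the second was 0.57 there (limma, adjusted p = 0.00122). The high MCF10Ca1a replicate 1 value held 13.9% from a noncoding transcript of 100 bases that was at 0 in the other 8 libraries, and on counts that library was near its replicates (78.7 against 73.1 and 76.8 CPM).

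EHMT2 encodes G9a, the partner of GLP (ENSG00000204371.12, chr6:31879759-31897687, - strand), and did not follow it. It measured 15.8, 11.5 and 12.1 TPM in MCF10A, 8.50, 8.04 and 9.09 in MCF10AT1, against 11.5, 10.5 and 10.97 in MCF10Ca1a. MCF10AT1 was below both other lines, and the highest MCF10Ca1a library came within rounding of the lowest MCF10A library. EHMT2 fell 1.38-fold in MCF10AT1 (-0.46, SE 0.0632, adjusted p = 2.41e-05) and was 1.30-fold lower in MCF10Ca1a than in MCF10A (-0.38, SE 0.0650, adjusted p = 8.95e-05), the latter lost on log2(TPM + 1) (-0.23, limma, adjusted p = 0.0819). MCF10Ca1a against MCF10AT1 gave 0.08 on counts (adjusted p = 0.276) and 0.33 on log2(TPM + 1), where it was called (adjusted p = 0.0190). EHMT1 made up 54.4% ± 1.37 of the pair's TPM in MCF10A, 68.3% ± 2.19 in MCF10AT1 and 71.6% ± 2.13 in MCF10Ca1a, and the MCF10A libraries were below all 6 others.

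TRIM28, also called KAP1, is the scaffold that KRAB zinc finger proteins use to recruit SETDB1 and HP1 (ENSG00000130726.12, chr19:58544091-58550722, + strand). Its TPM was 243, 196 and 175 in MCF10A, 264, 254 and 243 in MCF10AT1, against 207, 208 and 216 in MCF10Ca1a. MCF10A replicate 1 reached the lowest MCF10AT1 library, and the MCF10Ca1a libraries lay within the MCF10A range and below MCF10AT1. TRIM28 rose 1.38-fold in MCF10AT1 (0.46, SE 0.0747, adjusted p = 1.13e-04) and was 1.42-fold lower in MCF10Ca1a than in MCF10AT1 (-0.51, SE 0.0751, adjusted p = 2.72e-05). Both were missed by limma on unfiltered log2(TPM + 1) values (0.32, adjusted p = 0.0582, and -0.27, adjusted p = 0.0744). With the filter the latter was called at the same -0.27 (limma, adjusted p = 0.0295). MCF10Ca1a and MCF10A differed by -0.05 (adjusted p = 0.581), or by 0.05 without MCF10A replicate 1. In MCF10AT1, TRIM28 was thus higher and its partner SETDB1 lower than in MCF10A.

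**Figure D3:**
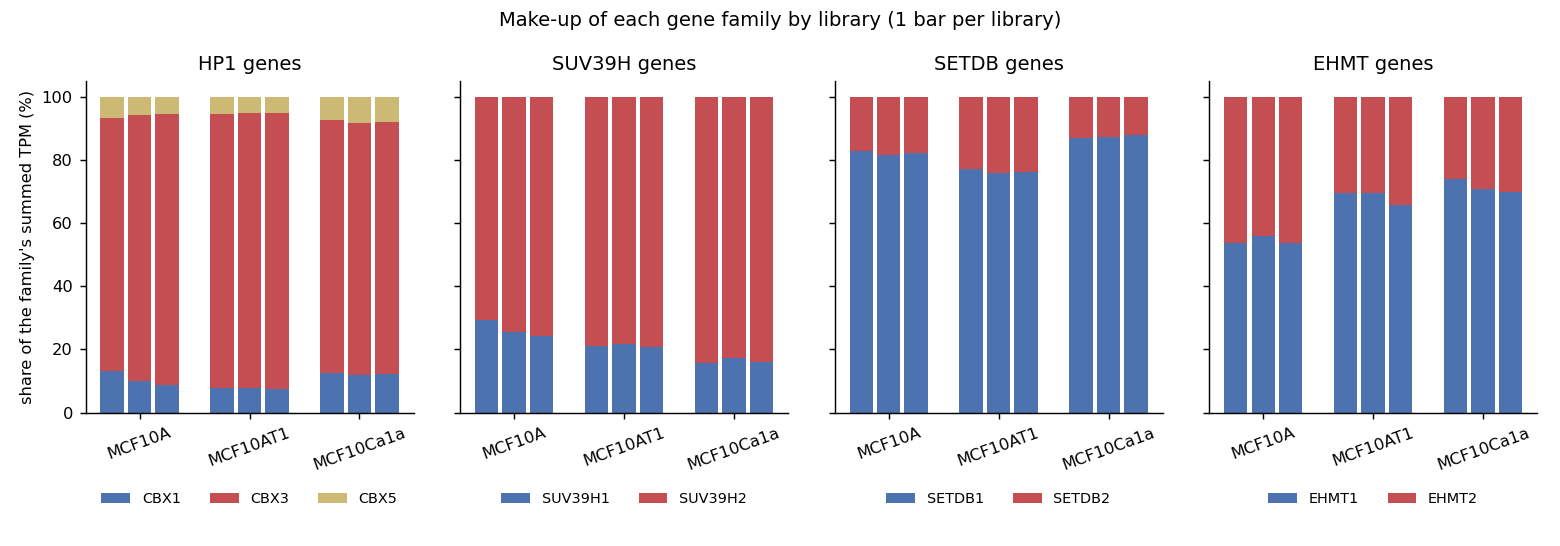
Share of each family's summed TPM held by each gene (vertical axis, percent), 1 bar per library, for the HP1, SUV39H, SETDB and EHMT genes. The EHMT1 share goes from 54.4% in MCF10A to 71.6% in MCF10Ca1a, the SUV39H1 share from 26.3% to 16.4%, and CBX3 holds 79.9% to 87.1% of HP1 TPM on average in every line.

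The order of the 10 by TPM was CBX3, TRIM28 and CBX1 at the top in all 3 lines and SETDB2 at the bottom. In MCF10A, SUV39H2 and CBX5 overlapped, as did EHMT1, SUV39H1 and EHMT2 in turn. In MCF10AT1 each gene was apart from the next. The change in MCF10Ca1a was that EHMT1 (28.0 ± 4.11 TPM) and SETDB1 (23.5 ± 1.48) stood above or beside CBX5 (23.5 ± 1.59) and above SUV39H2 (20.2 ± 2.27), where in MCF10A both were below them. SUV39H1 went from 13.3 ± 1.34 TPM, level with EHMT2, to 3.95 ± 0.239, just above SETDB2 at 3.36 ± 0.0746. Among HP1 genes CBX3 held 83.5% ± 3.02, 87.1% ± 0.227 and 79.9% ± 0.167 of the TPM, and a smaller part of the counts (59.2%, 65.0% and 54.1%), which are not corrected for length.

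Transcripts of the 10 genes numbered 135 in the tables, and 22 from 7 genes were abundant enough to test. Each was compared as the log2 ratio of its count to the rest of the gene (limma, adjusted over 26098 transcripts, of which 6.61%, 33.1% and 26.9% were called in the 3 comparisons). Only EHMT2-203 was called, in MCF10Ca1a against MCF10A. That protein-coding transcript of 28 exons held 33.6%, 50.1% and 35.3% of EHMT2 TPM in MCF10A, 29.3%, 35.5% and 22.8% in MCF10AT1, against 28.1%, 11.3% and 5.38% in MCF10Ca1a. Its log2 ratio was lower in MCF10Ca1a by -2.41 (SE 0.702, adjusted p = 0.0353), but leaving out any 1 library except MCF10Ca1a replicate 1 ended the call, with values from -2.60 to -1.74 and adjusted p from 0.0515 to 0.106 (limma). The SE limits what these 3 libraries a line can show of smaller shifts. On simulated data this test recovered 0% of changes of 1 on the log2 scale, 40.5% of changes of 2 and 78.5% of changes of 4. A transcript that was not called may therefore still have shifted.

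A coding exon of EHMT2 was examined after its values were seen. Exon 10 of EHMT2-203 (chr6:31888969-31889070, GRCh38, GENCODE 29) is 102 bases, or 34 codons, and is present in 3 and absent from 2 of the transcripts compared (EHMT2-211, with the exon, is annotated as a processed transcript and the other 4 as protein-coding). These transcripts covered 62.0% to 73.2% of the gene's TPM. Transcripts with the exon held 77.4%, 76.4% and 80.8% of those TPM in MCF10A, 55.4%, 61.3% and 68.4% in MCF10AT1, against 53.6%, 59.6% and 51.6% in MCF10Ca1a. MCF10A did not overlap either other line. The difference from MCF10A was -16.5 percentage points in MCF10AT1 and -23.3 in MCF10Ca1a, each with an exact two-sided permutation p of 0.1, the smallest that 3 against 3 allows. MCF10Ca1a and MCF10AT1 differed by -6.76 points (exact permutation p = 0.2).

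The main transcripts of CBX1, CBX3 and SUV39H1 varied little in share. CBX1-201 held 93.8%, 96.0% and 93.2% of CBX1 TPM on average, CBX3-202 83.3%, 85.1% and 85.8% of CBX3, and SUV39H1-202 96.9%, 95.1% and 98.9% of SUV39H1. SETDB2-205 was less steady, with 84.9% ± 5.53, 90.2% ± 2.37 and 74.6% ± 15.8 of SETDB2 TPM (SD, n = 3) and 57.9% in MCF10Ca1a replicate 1. EHMT2-202 held 6.34% ± 5.77, 15.3% ± 4.59 and 22.8% ± 13.5 of EHMT2 TPM, and its change was not called. SUV39H2-205, annotated as a target of nonsense-mediated decay, held 36.2% ± 4.44, 32.9% ± 1.70 and 29.3% ± 7.45 of that gene's TPM, the largest mean share in MCF10A and MCF10AT1. In MCF10Ca1a SUV39H2-207 held 39.3%, 22.4% and 36.3%, above SUV39H2-205 in 2 of the 3 libraries and below it in replicate 2 (37.3%). CBX5-203, which retains an intron, was listed at 0 in all 6 MCF10A and MCF10AT1 libraries and in MCF10Ca1a replicate 1, and made up 9.15% and 12.3% of CBX5 TPM in the other 2 MCF10Ca1a libraries.

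Other genes of the pathway were taken from 4 lists of 40 genes, of which 39 were tested. In MCF10AT1 against MCF10A, 5 rose, 27 fell and 7 were not called, where 29.8% of all genes rose and 31.8% fell (median log2 fold change -0.32 beside -0.00 over all genes). In MCF10Ca1a against MCF10A, 14 rose, 22 fell and 3 were not called, where 39% of all genes rose and 41.9% fell (median -0.31 against -0.05). In MCF10Ca1a against MCF10AT1, 19 rose, 17 fell and 3 were not called, where 38% of all genes rose and 40.3% fell (median 0.00 against -0.04).

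Of 11 enzymes that remove H3K9 methylation, the demethylases, 6 rose and 3 fell in MCF10Ca1a against MCF10A (median 0.39), where 39% of all genes rose and 41.9% fell. Against MCF10AT1, 8 rose and 3 fell (median 0.65), where 38% of all genes rose and 40.3% fell. KDM7A rose most (1.76 against MCF10A, SE 0.0659, adjusted p = 1.16e-11), from 1.40 to 1.56 TPM in MCF10A and 1.31 to 1.42 in MCF10AT1 to 5.41 to 5.85 in MCF10Ca1a, and KDM4C, which removes trimethylation, rose at both steps (0.43, adjusted p = 1.79e-05, then 0.55, adjusted p = 6.73e-07). KDM3B had the largest fall, at -0.89 against MCF10A (adjusted p = 4.29e-08). KDM4D, at 0.362 to 1.12 TPM in all libraries, was lower by -0.78 in MCF10AT1 (adjusted p = 0.00113), and 5 of the 11 fell there while 2 rose, beside 31.8% and 29.8% of all genes. KDM3B was 1 of the 5, at -0.20 (adjusted p = 0.0258), but that call was lost in 6 of 20 alternatives: with only the lines compared, after thinning to the smallest library, and without MCF10A replicate 1 (-0.11, adjusted p = 0.0737) or 2 or MCF10AT1 replicate 2 or 3 (-0.20 to -0.17, adjusted p = 0.0589 to 0.0946).

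PRDM2 and MECOM, the 2 further methyltransferase genes tested, both fell in MCF10AT1 (-0.64, adjusted p = 2.95e-07, and -0.45, adjusted p = 2.35e-05). In MCF10Ca1a against MCF10A they were at -0.37 (adjusted p = 3.37e-05) and -0.45 (adjusted p = 1.65e-05), and on log2(TPM + 1) at -0.03 and -0.25, neither called (limma, adjusted p = 0.799 and 0.0571). Among 12 partners of the methyltransferases, 8 fell and 1 rose in MCF10AT1 (31.8% and 29.8% of all genes), and 9 fell and 2 rose in MCF10Ca1a against MCF10A (41.9% and 39% of all genes). CDYL2, a chromodomain protein that binds methylated H3K9, fell at both steps, from 0.912 to 1.15 TPM in MCF10A to 0.224 to 0.236 in MCF10AT1 and 0.0463 to 0.140 in MCF10Ca1a (-2.03, adjusted p = 1.26e-08, then -2.27, adjusted p = 2.15e-07). At these low levels the size depends on the scale: on log2(TPM + 1) the steps were -0.75 and -0.18, and on log2(TPM + 0.1) -1.82 and -0.83, all called (limma, adjusted p at most 0.0191). ZNF644, a zinc finger subunit of the G9a and GLP complex, rose in MCF10Ca1a (0.52, adjusted p = 1.38e-06). ATF7IP, the cofactor that stabilises SETDB1, rose in MCF10AT1 (0.26, adjusted p = 9.24e-04, not called on log2(TPM + 1) at 0.13, limma adjusted p = 0.212), the line where SETDB1 was low, and its direction in MCF10Ca1a turned with the scale. Against MCF10A it was -0.04 on counts (adjusted p = 0.496) and 0.45 on log2(TPM + 1) (limma, adjusted p = 5.27e-04). Against MCF10AT1 it was called lower on counts (-0.31, adjusted p = 1.99e-04) and higher on log2(TPM + 1) (0.32, limma, adjusted p = 0.00490).

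Of 14 genes for proteins that bind HP1, 12 fell and 2 rose in MCF10AT1, where 31.8% of all genes fell and 29.8% rose. In MCF10Ca1a against MCF10A, 8 fell and 6 rose, where 41.9% of all genes fell and 39% rose. LBR, the inner nuclear membrane protein that tethers HP1-bound chromatin, fell in MCF10AT1 (-1.14, SE 0.0559, adjusted p = 8.26e-10) and again in MCF10Ca1a (-0.62, adjusted p = 2.04e-07), from 126 to 162 TPM in MCF10A to 43.6 to 48.7 in MCF10Ca1a. INCENP, the scaffold of the chromosomal passenger complex, had the largest fall in MCF10Ca1a against MCF10A (-2.05, SE 0.0819, adjusted p = 2.22e-11). LRIF1, a ligand-dependent nuclear receptor cofactor that binds HP1, rose most, from 4.44 to 5.52 TPM in MCF10A to 21.0 to 22.1 in MCF10AT1 and 36.7 to 37.7 in MCF10Ca1a (2.08, adjusted p = 6.67e-12, and 2.52, adjusted p = 2.75e-13, both against MCF10A). On log2(TPM + 1) some sizes in these lists moved by over 1.5 times while the calls held (limma): KDM4D in MCF10AT1 was -0.33, PCNA, a proliferation gene, 0.18 and KDM3B -0.33, ZNF644 in MCF10Ca1a against MCF10A was 0.84, and LBR against MCF10AT1 was -0.33. On log2(TPM + 0.1) KDM4C was 0.83 in MCF10Ca1a against MCF10AT1.

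**Figure D4:**
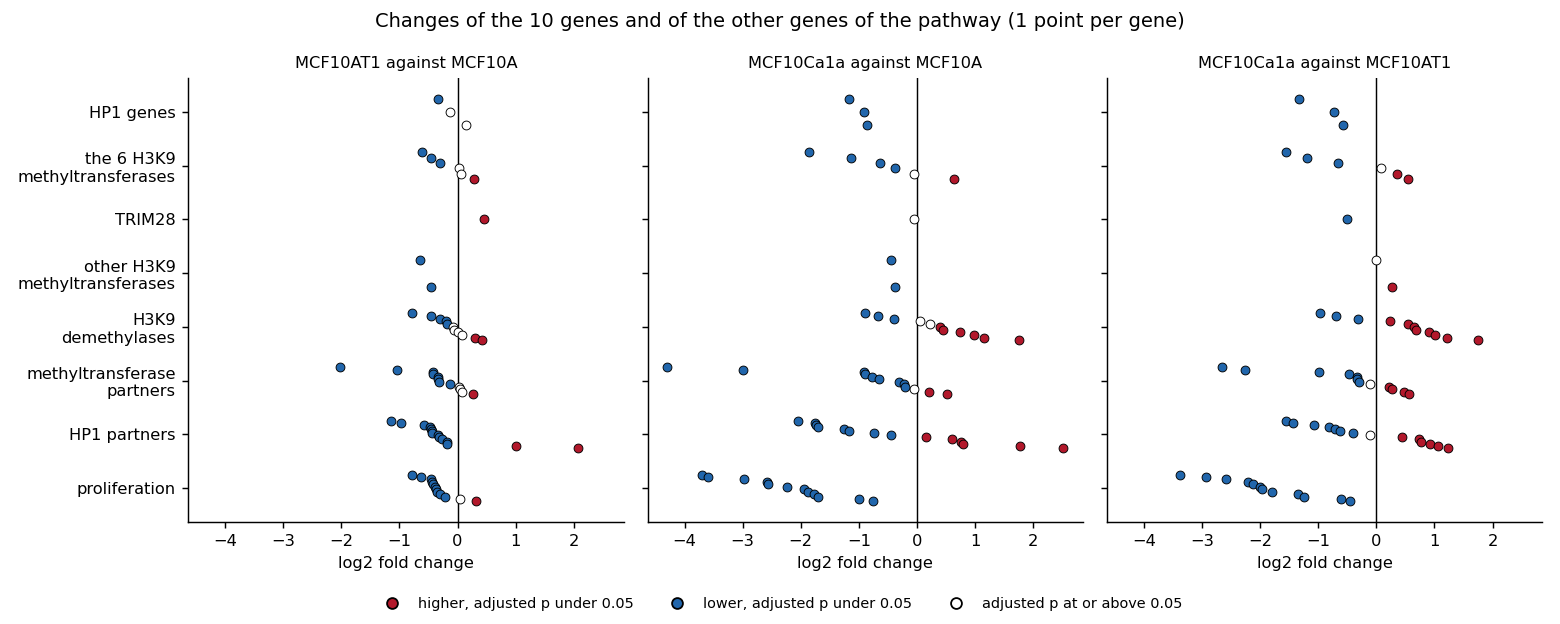
Log2 fold changes of the 10 genes by role and of the other pathway lists and the proliferation list (horizontal axis, 1 point per gene, coloured by call), 1 panel per comparison on a shared axis. The HP1 genes and all 12 proliferation genes lie left of 0 in both MCF10Ca1a panels, while 6 of 11 demethylases were called higher against MCF10A and 8 of 11 against MCF10AT1.

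All 12 listed proliferation genes fell in MCF10Ca1a (median log2 fold change -2.08 against MCF10A and -1.99 against MCF10AT1), where 41.9% and 40.3% of all genes fell, and their summed level was 2325 to 2415 TPM in MCF10A, 1758 to 1870 in MCF10AT1 and 603 to 612 in MCF10Ca1a. PLK1, a mitotic kinase, fell most (-3.70 against MCF10A, adjusted p = 7.31e-14). In MCF10AT1, 10 fell (31.8% of all genes) and 1 rose (29.8% of all genes), PCNA, the sliding clamp of DNA replication (0.31, adjusted p = 9.48e-04). The part of proliferation in the changes of the 10 genes was not tested, and in bulk RNA fewer cells that express a gene and less RNA per cell cannot be told apart.

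Genes that start head to head with one of the 10, within 1000 bases in GENCODE 29, sometimes moved with it and sometimes not. CBX3 starts 367 bases from HNRNPA2B1, an RNA-binding protein gene, and the pair overlap. HNRNPA2B1 showed -0.05 in MCF10AT1 (adjusted p = 0.623) and fell by 1.13 and 1.08 in MCF10Ca1a against MCF10A and MCF10AT1 (adjusted p = 1.73e-08 and 3.29e-08), beside -1.17 and -1.33 for CBX3. CBX5 starts 60 bases from HNRNPA1, a paralog of that neighbour, which also fell in MCF10Ca1a (-0.55, adjusted p = 6.10e-06, and -0.43, adjusted p = 6.69e-05) beside -0.85 and -0.73 for CBX5. The library kit keeps strand, but whether the counting used it is not given in the sources used here.

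The other neighbours went the opposite way to the gene beside them, or further. CAB39L, 248 bases from SETDB2, rose in MCF10Ca1a against MCF10A (0.53, adjusted p = 1.30e-05) where SETDB2 fell, and SUV39H2-DT, a lincRNA that starts 134 bases from SUV39H2, rose by 1.14 (adjusted p = 0.00237) on few reads, at 25, 26 and 29 counts in MCF10A and 19, 28 and 46 in the shallower MCF10Ca1a libraries. C2, the complement gene 98 bases from EHMT2, rose by 5.64 on the log2 scale (adjusted p = 3.49e-10) where EHMT2 fell, from 4, 2 and 2 counts in MCF10A to 71, 72 and 79.6 in MCF10Ca1a. ARRDC1-AS1, 57 bases from EHMT1, rose by 1.09 (adjusted p = 1.84e-08) beside 0.64 for EHMT1. RN7SL525P, 513 bases from TRIM28, was not tested.

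Genes within 500 kb of SETDB1, TRIM28 and EHMT1 changed in the same direction as those genes in MCF10AT1. Around the other genes called there, the medians were 0.04 for CBX1 (beside -0.34), -0.12 for SUV39H1 (beside -0.30) and -0.06 for EHMT2 (beside -0.46). Around SETDB1, 24 of 33 genes tested fell and 1 rose in MCF10AT1 against MCF10A, where 31.8% of all genes fell and 29.8% rose (median -0.62, beside -0.60 for SETDB1), and 24 rose and 6 fell in MCF10Ca1a against MCF10AT1 (median 0.82, beside 0.55). Around TRIM28, 18 of 27 rose and 2 fell in MCF10AT1 (median 0.41, beside 0.46), but in MCF10Ca1a against MCF10AT1 their median was 0.21 (0.34 within 1000 kb) where TRIM28 fell by 0.51. Around EHMT1, 18 of 22 rose and 0 fell in MCF10AT1 (median 0.54, beside 0.29), and in MCF10Ca1a against MCF10A the median was 0.52, beside 0.64. In MCF10Ca1a against MCF10AT1 the median around EHMT1 was -0.29, with 5 of 22 higher and 11 lower (38% and 40.3% of all genes), beside 0.36 for EHMT1. Within 1000 kb that median was -0.07, with 16 of 48 higher and 22 lower. The neighbours of SUV39H1 did not share its fall: their median in MCF10Ca1a against MCF10A was 0.59, with 14 of 26 higher and 8 lower (39% and 41.9% of all genes). CBX1 likewise fell among neighbours with a median of 0.71. Around 3 other genes that fell in MCF10Ca1a against MCF10A the median was also below 0, at -0.36 for SETDB2 (3 of 10 higher and 6 lower), -0.32 for CBX5 (7 of 21 higher and 10 lower, and -0.20 within 1000 kb) and -0.53 for CBX3 over 4 genes (-0.10 over 20 genes within 1000 kb). SUV39H2 and EHMT2 also fell there, among neighbours with medians of 0.15 (6 of 12 higher and 6 lower, and -0.14 within 1000 kb) and 0.13 (24 of 56 higher and 15 lower, and 0.07 within 1000 kb). Whether these neighbourhoods play a part in the changes was not tested.

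**Figure D5:**
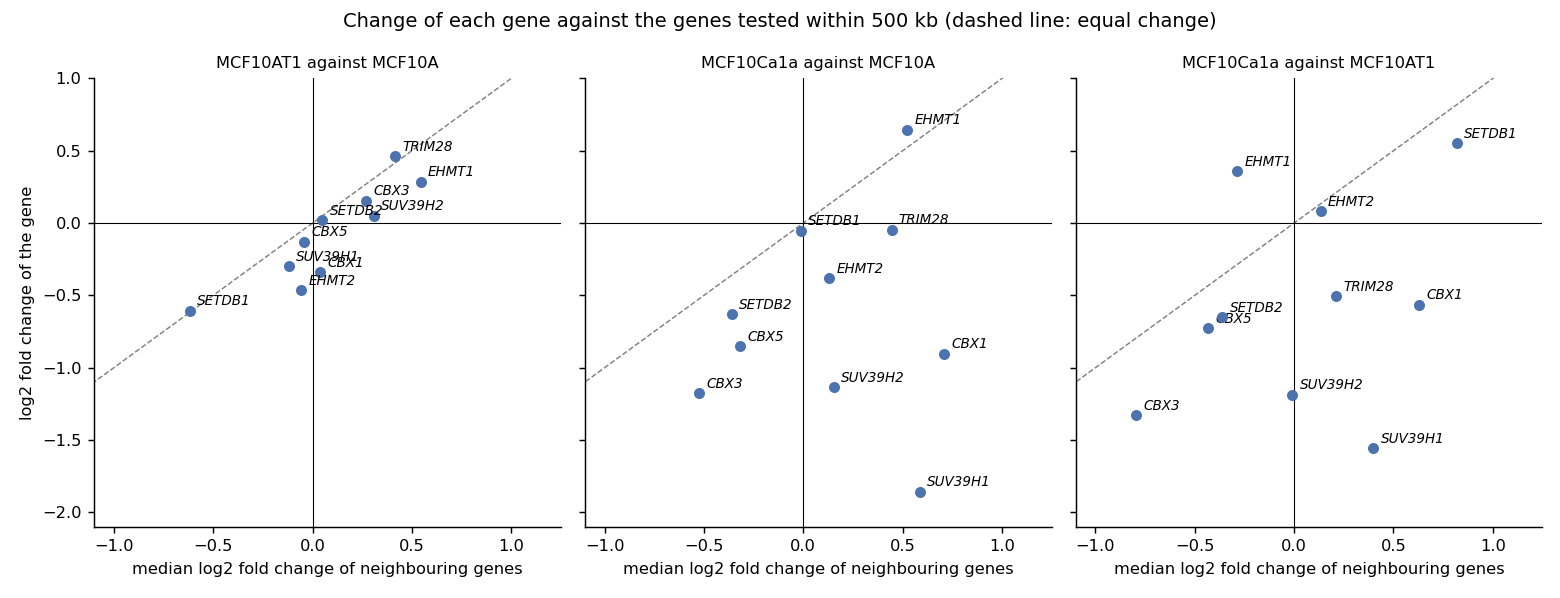
Log2 fold change of each of the 10 genes (vertical axis) against the median of the other genes tested within 500 kb (horizontal axis), 1 panel per comparison, with a dashed line of equal change. In the MCF10AT1 panel SETDB1 (-0.60 against -0.62) and TRIM28 (0.46 against 0.41) lie close to the line, and in the MCF10Ca1a panels SUV39H1 and CBX1 lie far below it.

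The gene whose pattern over the 9 libraries was closest to each of the 10 was found among 15854 genes with a symbol, by the root mean square difference of log2 CPM after centring each gene on its own mean. CBX3 was closest to COX16 (0.0248), EHMT1 to CNNM3 (0.0277), TRIM28 to LMNA, the lamin A and C gene (0.0298), and SETDB2 to ACAT1 (0.0344). SETDB1 was closest to IER5 (0.0366), EHMT2 to POM121C (0.0383), CBX1 to ADD1 (0.0402), SUV39H1 to SLC25A13 (0.0533) and CBX5 to PBX2 (0.0538). None of the 10 had another of the 10 as its closest gene.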

How the data were processed

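RNA from 9 libraries was quantified with Salmon on hg38, per the submitters' processing notes, which give no versions. The authors deposited 6 tables: estimated counts per gene (plain, scaled and length-scaled) and per transcript, and TPM per gene and per transcript. The columns were matched to libraries by name, and 0 columns of per-sample values were left unused. The depth was 32.9 to 69.5 M (mega) counts per library. Annotation came from GENCODE 29 on GRCh38, by unversioned gene identifier, and promoters from RefSeq (GRCh38.p14).

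Estimated counts were rounded and tested with edgeR 4.0.16 (R 4.3.3; TMM, filterByExpr with a minimum count of 10 and total of 15, quasi-likelihood test, 9 libraries in 1 fit, Benjamini-Hochberg adjusted p under 0.05). Transcript ratios, with 0.5 added to each count, were tested with limma 3.58.1, for transcripts with a mean of at least 10 counts and 5% of the gene. Alternatives were DESeq2 1.42.0 and limma on log2(TPM + 1), other count tables, filters and scalings, a replicate block, and each library left out. Each test was first run on simulated data with 200 known changes. At a log2 change of 1, edgeR recovered 98% of them and the transcript ratio test 0%. The transcript test recovered 40.5% at a log2 change of 2 and 78.5% at 4.

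The members and gene lists were chosen with earlier results of these data known. Of each other list, the genes named are those with the largest called rise and fall in MCF10Ca1a and in MCF10AT1 against MCF10A. For each member the nearest gene by pattern and any gene starting head to head within 1000 bases are also named, except that the nearest gene to SUV39H2 and 1 immune marker are not reported here.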

Additional observations from a re-analysis of the deposited data

How the results depend on the processing

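Of the 30 member comparisons, 18 kept their direction and side of the threshold under all 20 alternatives and 12 did not. Members called ranged over 5 to 7, 7 to 8 and 8 to 10 in the 3 comparisons (6, 8 and 9 as reported), and pathway list genes over 26 to 32, 28 to 37 and 32 to 38 (32, 36 and 36). Member transcripts called in MCF10Ca1a against MCF10A were 0 with only the lines compared and 0 to 1 with 1 library left out, and in MCF10Ca1a against MCF10AT1 0 to 1 with 1 library left out. The 1 called against MCF10A without MCF10Ca1a replicate 2 was not EHMT2-203 (limma, adjusted p = 0.0892 for EHMT2-203). Nor was the 1 called against MCF10AT1 without MCF10Ca1a replicate 3 (limma, adjusted p = 0.302 for EHMT2-203). The values below turned sign, and the cause was not tested. For MCF10AT1 against MCF10A on log2(TPM + 1), log2(TPM + 0.1) and unfiltered log2(TPM + 1), SUV39H2 was -0.0077, -0.0079 and -0.0077, SETDB2 -0.091, -0.11 and -0.091, and KDM7A -0.072, -0.11 and -0.072. SETDB2 was -0.010 after thinning to the smallest library and -0.021 to 0.051 with 1 library left out, and KDM7A -0.031 to 0.069. For MCF10Ca1a against MCF10A on the same 3 scales, SETDB1 was 0.17, 0.17 and 0.17, TRIM28 0.051, 0.051 and 0.051, and ATF7IP 0.45, 0.48 and 0.45. On length-scaled and scaled counts SETDB1 was 0.012 and 0.021 and ATF7IP 0.32 and 0.33. With 1 library left out TRIM28 was -0.13 to 0.045 and ATF7IP -0.094 to 0.0016. For MCF10Ca1a against MCF10AT1, ATF7IP was called lower as reported (-0.31), was 0.052 and 0.062 on length-scaled and scaled counts and was called higher on the 3 TPM scales (0.32, 0.34 and 0.32; limma, adjusted p = 0.00469 to 0.00850). ATF7IP against MCF10A was called higher on these TPM scales and on both scaled count tables. For MCF10Ca1a against MCF10AT1 without a filter on low counts, EHMT2 was -0.0084 and MECOM -0.087, and MECOM was -0.045 to 0.041 with 1 library left out and called higher on the 3 TPM scales (0.35, 0.40 and 0.35; limma, adjusted p = 0.0116 to 0.0285). The median over all genes moved to -0.11, 0.10 and 0.21 on log2(TPM + 0.1).

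The replicate numbers did not pair the libraries: deviations of same-numbered libraries correlated at -0.0597 to 0.0451 (9 pairs, 0 over 0.1) and of others at -0.0742 to 0.0955. With the replicate block, members called were 6, 8 and 9, list genes 30, 36 and 36, and member transcripts 0, 1 and 0. MCF10Ca1a was sequenced to 32.9 to 35.2 M counts, the other lines deeper, and with 3 libraries a line the transcript ratio of EHMT2-203 had an SE of 0.702.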
